A study of Homo sapiens with 4 samples.

Results

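ELF5 binding was examined at 8 genes of the epithelial-to-mesenchymal transition: the transcription factor genes ZEB1, ZEB2, SNAI1, SNAI2 and TWIST1, and the effector genes VIM, CDH2 and FN1. The members are the peaks of the authors' list whose summit, the position of highest signal, lies in a fixed window around each gene on hg19. The windows were chosen by position and not by any measured value, although earlier results of these data were known. They held 52 of 115384 peaks, and each of the 8 windows held at least 1. The cells were T47D, an epithelial cell line of the luminal A type from human breast, kept in RPMI with 10% FBS and insulin and left untreated. The series comprised 3 ELF5 ChIP replicates and 1 input sample, from the same line in the same medium. The deposited values were 1 list with no column per replicate, and it is not stated whether it rests on all 3 replicates or on 2 of them. A peak therefore has no replicate error here and no group was tested against another. The antibody was given per sample, while the protocol text named antibodies against KLF5 and CEBPB in other lines.

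The epithelial-to-mesenchymal transition is a switch in which epithelial cells lose their junctions and gain motility. ZEB, SNAI and TWIST proteins bind DNA and repress epithelial genes such as the E-cadherin gene, while vimentin, N-cadherin and fibronectin are the filament, adhesion and matrix proteins by which the mesenchymal state is recognised. ELF5, an ETS factor of luminal progenitor and milk-secreting cells, has been described as a repressor of SNAI2 in mammary epithelium. ETS proteins recognise a core of GGAA. Expression of the 8 genes was not measured in these data, and a peak does not say whether a gene was on or off.

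Promoter sequence from RefSeq (GRCh38.p14) matched 5 of the 8 genes, with 12 entries for alternative starts, 7 of them at ZEB1. SNAI1, SNAI2 and TWIST1 were not matched, so nothing is said of their promoters. The most upstream start of each gene is shown, and which start is used in these cells was not measured. ZEB1 has a further entry because that entry alone held the longer core CCGGAA. Each sequence is the 250 bases upstream of a start, 5′ to 3′ on the gene's strand, with every GGAA, or TTCC for the other strand, in capitals:
ZEB1, first start: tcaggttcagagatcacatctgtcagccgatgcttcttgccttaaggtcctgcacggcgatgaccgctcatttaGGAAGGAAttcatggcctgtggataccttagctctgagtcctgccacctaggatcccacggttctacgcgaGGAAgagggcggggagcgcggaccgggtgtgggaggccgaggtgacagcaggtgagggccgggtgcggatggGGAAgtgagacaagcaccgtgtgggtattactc
ZEB1, start 3: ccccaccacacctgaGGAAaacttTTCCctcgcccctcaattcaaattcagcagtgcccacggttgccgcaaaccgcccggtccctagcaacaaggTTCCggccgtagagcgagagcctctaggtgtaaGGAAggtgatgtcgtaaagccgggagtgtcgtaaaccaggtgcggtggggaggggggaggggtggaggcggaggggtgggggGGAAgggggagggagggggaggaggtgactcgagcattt
ZEB2: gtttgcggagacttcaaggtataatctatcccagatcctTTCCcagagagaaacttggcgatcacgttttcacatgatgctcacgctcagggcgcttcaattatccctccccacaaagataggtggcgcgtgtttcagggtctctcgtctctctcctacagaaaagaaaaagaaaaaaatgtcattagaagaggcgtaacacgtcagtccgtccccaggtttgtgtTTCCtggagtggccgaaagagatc
VIM: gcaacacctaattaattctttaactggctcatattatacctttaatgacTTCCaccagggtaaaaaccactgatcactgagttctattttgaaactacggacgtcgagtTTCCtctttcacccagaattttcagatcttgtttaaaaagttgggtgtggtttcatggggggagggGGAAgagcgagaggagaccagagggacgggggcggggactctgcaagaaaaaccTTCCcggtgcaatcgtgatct
CDH2, first start: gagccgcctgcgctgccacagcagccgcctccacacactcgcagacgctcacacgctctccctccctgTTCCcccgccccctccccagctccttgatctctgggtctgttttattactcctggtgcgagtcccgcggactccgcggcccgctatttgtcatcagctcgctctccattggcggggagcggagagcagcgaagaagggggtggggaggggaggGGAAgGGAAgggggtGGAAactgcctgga
FN1: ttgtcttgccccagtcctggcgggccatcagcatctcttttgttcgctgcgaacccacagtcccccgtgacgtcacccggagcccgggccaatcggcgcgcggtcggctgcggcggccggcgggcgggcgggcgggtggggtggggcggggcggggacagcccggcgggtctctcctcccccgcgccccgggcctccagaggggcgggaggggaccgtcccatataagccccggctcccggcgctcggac

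The core GGAA, searched on both strands, was in 11 of the 12 entries, and in 92.7% of 35116 RefSeq promoters of the same length. The first ZEB1 entry held 4 matches, the entry of start 3 held 5, ZEB2 2, VIM 4 and the first CDH2 entry 4, while the FN1 entry held 0. CCGGAA, which overlaps GGAA, was in 1 of the 12 entries against 14.5% of all promoters. AGGAAG, which overlaps it too, was in 4 entries, 3 of ZEB1 and the second of CDH2, against 28.7%. These are matches of letters. The peaks are on hg19 and these sequences are not, so which promoter lies under which peak was not analysed here.

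Over the 8 windows together, ELF5 peaks were about as dense and as high as in the list as a whole, but the windows differed widely. Together they held 38.95 peaks per Mb, against 37.3 in the whole list. Densities and covered bases of the list are over chromosomes 1 to 22, X and Y, gaps in the assembly included. Without SNAI1 the other 7 windows held 25.6 per Mb. In the 8 windows peaks covered 1.36% of the bases, against 1.24% in the list. Fold, the authors' enrichment of ChIP signal over local background, had a median of 3.70 in the windows (interquartile range 3.11 to 6.20) and 3.66 in the list (2.98 to 5.50). The authors' q was under 0.05 for 46 of the 52 peaks (88.5%), and for 87.5% of the list. Peaks of at least 500 bp numbered 10 (19.2%), against 15.7% of the list.

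Strong peaks, defined as the highest 10% of the list by fold (10.0% of all peaks, with a fold of at least 11.99), numbered 4 of 52. They lay in the windows of SNAI1, SNAI2 and VIM, and the VIM window had 2. With 20 kb taken off each side the VIM window held 1. The windows of ZEB1, ZEB2, TWIST1, CDH2 and FN1 held none, although with 20 kb added at each side those of ZEB1, ZEB2 and FN1 held 1 each. With so few peaks the share, 7.69%, is close to the background, and ranking by the authors' p in place of fold also gave 4.

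**Figure D1:**
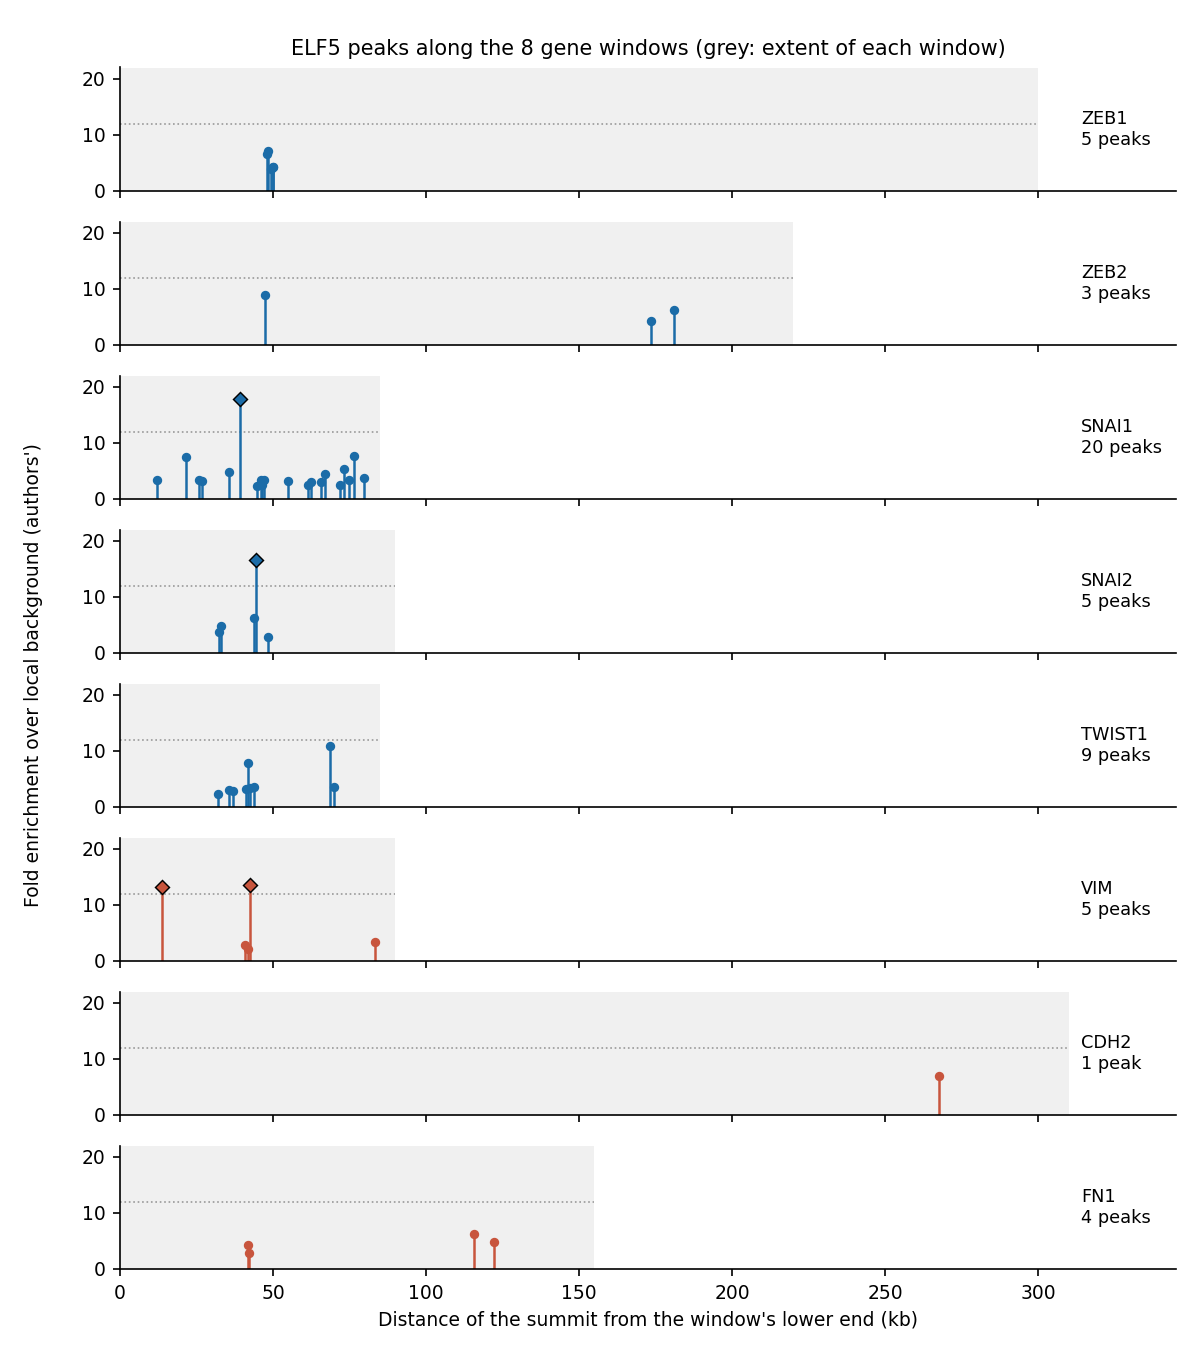
Position and fold of the 52 ELF5 peaks. The x axis gives the distance of each summit from the lower end of its window in kb, the y axis the authors' fold, grey the extent of the window, blue the transcription factor genes and red the effector genes. Diamonds mark the 4 strong peaks, above the dotted line at a fold of 11.99. The 5 ZEB1 peaks stand at almost 1 place, while the 20 SNAI1 peaks are spread over most of their window.

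SNAI1 encodes Snail, a zinc finger repressor. Its window, chromosome 20 from 48560 to 48645 kb, held 20 peaks, or 235 per Mb, against 82.5 per Mb over chromosome 20. Of 35709 tiles of 85 kb laid end to end along chromosomes 1 to 22 and X, 3.10% held at least as many. Of those on chromosome 20 alone, 8.37% did. With the window reduced by 20 kb at each side, 12 peaks were left. Peaks covered 8.09% of its bases, the largest share of the 8 windows. Most of these peaks were weak: the median fold was 3.35, which was also the median over chromosome 20, and the authors' q was 0.05 or more for 4 of the 20.

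A single peak stood out at SNAI1. It covered 48598605 to 48599884, a width of 1280 bp, the widest of the 52, with a fold of 17.7 (95% counting interval 14.5 to 21.5). Its recovered fragment pileup was 100 over a background of 4.19 fragments, and 5.54% of the list had a fold as high. The next highest folds were 7.58 (5.67 to 9.95) at 48635942 to 48637092 and 7.55 (5.75 to 9.74) at 48581487 to 48581778. Neither interval overlapped that of the strong peak, so within the window the strong peak was higher by more than counting error. In the RefSeq order the neighbours of SNAI1 are RNF114, a ubiquitin ligase gene, and PEDS1-UBE2V1, and which of the 20 peaks lie at a neighbour was not analysed here.

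SNAI2 encodes Slug, the paralog of Snail. Its window, chromosome 8 from 49790 to 49880 kb, held 5 peaks, all with the authors' q under 0.05. Of tiles of 90 kb, 21.0% held at least as many. The peak at 49834195 to 49834712 was strong, with a fold of 16.6 (13.2 to 20.5), a pileup of 81 and a background of 3.51. A second peak at 49833727 to 49834046, its summit 0.63 kb away, had a fold of 6.26 (4.14 to 9.11). The other folds were 3.66 at 49822359 to 49822505, 4.87 at 49823055 to 49823218 and 2.80 at 49838304 to 49838684. The strongest peaks of SNAI1 and SNAI2 had overlapping intervals and were not ranked. Their windows held 20 and 5 peaks. With 20 kb added at each side, the SNAI2 window held 13 peaks, so its count depends on where the window ends.

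TWIST1 encodes a basic helix-loop-helix factor. Its window, chromosome 7 from 19115 to 19200 kb, held 9 peaks, all with the authors' q under 0.05. Of tiles of its width, 10.8% held at least as many. The peaks formed 2 groups, 7 with summits from 19146992 to 19158790 and 2 more after a gap of 24.9 kb. The first group was led by a 935 bp peak at 19156430 to 19157364 with a fold of 7.76 (5.65 to 10.4). The highest of the window was in the second group, at 19183286 to 19184034, with a fold of 10.9 (7.73 to 15.1), just under the limit for strong peaks. Its pileup of 35 was lower than the 42 of the 935 bp peak, and its background was 2 against 4.05, so the order of these peaks depends on the background. Their intervals overlapped. The next gene above TWIST1 in the RefSeq order is FERD3L, another basic helix-loop-helix gene, and whether the second group lies there was not analysed here.

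ZEB1 encodes a zinc finger and homeodomain repressor. Its window, chromosome 10 from 31560 to 31860 kb, held 5 peaks, all with the authors' q under 0.05. Of tiles of 300 kb, 50.3% held at least as many. The placement of the peaks was narrow: the 5 summits lay within 2.06 kb, and the longest stretch without a summit was 249.9 kb. The next peaks in the list were 153.5 kb below and 261.8 kb above. The widest, at 31607155 to 31608296, had a pileup of 49, a background of 6 and a fold of 6.51 (4.85 to 8.56). The one with the highest fold, at 31608355 to 31608561, had a pileup of 30, a background of 3 and a fold of 7.07 (4.85 to 9.99). The remaining 3, with summits at 31609373, 31609830 and 31610059, had folds of 3.91, 4.28 and 4.28 on pileups of 11, 13 and 13. They were counted as given in the list. Counting summits within 400 bp once left 50 of the 52 peaks.

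ZEB2 encodes the paralog of ZEB1. Its window, chromosome 2 from 145100 to 145320 kb, held 3 peaks, and 55.9% of tiles of 220 kb held at least as many. The highest, at 145147163 to 145147511, had a fold of 8.82 (5.98 to 12.6) and stood 57.5 kb from the nearest other peak. The other 2 were 7.42 kb apart, with folds of 4.24 (2.36 to 7.14) at 145273498 to 145273650 and 6.16 (4.11 to 8.92) at 145280891 to 145281071. Unlike those of ZEB1, these peaks were spread over 133.6 kb, and above the last of them no peak followed for 2197 kb. All were under 500 bp wide.

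VIM encodes vimentin, the intermediate filament protein of mesenchymal cells. Its window, chromosome 10 from 17230 to 17320 kb, held 5 peaks, and 21.0% of tiles of 90 kb held at least as many. It was the only window with more than 1 strong peak. One covered 17271993 to 17272846 with a fold of 13.5 (10.9 to 16.6), the other 17243131 to 17243904 with a fold of 13.2 (10.6 to 16.3). Their pileups were 88 and 86 over a background of 5, and their intervals overlapped almost wholly. The remaining 3 were weak: 17270879 to 17271171 with a fold of 2.90, 17271797 to 17271931 with a fold of 2.09 and an authors' q of 0.272, and 17313230 to 17313364 with a fold of 3.36. The window is wider than the gene. TRDMT1, an RNA methyltransferase gene, precedes VIM in the RefSeq order, and whether the peak nearer the lower end lies at TRDMT1 was not analysed here. With the window reduced by 20 kb at each side, 3 peaks and 1 strong peak were left.

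CDH2 encodes N-cadherin, the adhesion molecule gained when E-cadherin is lost. Its window, chromosome 18 from 25490 to 25800 kb, is the widest of the 8 and held 1 peak, against a median of 5 in tiles of 310 kb, of which 82.7% held at least 1. The peak covered 25757278 to 25758073, 796 bp. Its pileup was 22 and its background 2, which gave a fold of 7.01 (4.51 to 10.4) and an authors' q of 2.53e-12. It was among the most isolated of the list. The nearest other summits were 316.4 kb below and 1185 kb above, and 0.197% of all peaks were as far from their nearest neighbour. Over chromosome 18 peaks were sparse, at 15.9 per Mb.

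FN1 encodes fibronectin, a glycoprotein of the extracellular matrix. Its window, chromosome 2 from 216185 to 216340 kb, held 4 peaks, and 38.5% of tiles of 155 kb held at least as many. The highest, at 216300579 to 216301007, had a fold of 6.18 (3.81 to 9.56) on a pileup of 18. The other folds were 4.88 at 216307240 to 216307387, 4.24 at 216226704 to 216226850 and 2.94 at 216227173 to 216227326. The last rested on a pileup of 8, the lowest of the 52 peaks, and its authors' q was 0.0666. All 4 lay over a background of 1.81 fragments, the lowest in the list. Peaks of the ZEB1 and ZEB2 windows had the same value, and whether it is a lower limit set in peak calling was not tested. The gene below FN1 in the RefSeq order is ATIC, a gene of purine synthesis.

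**Figure D2:**
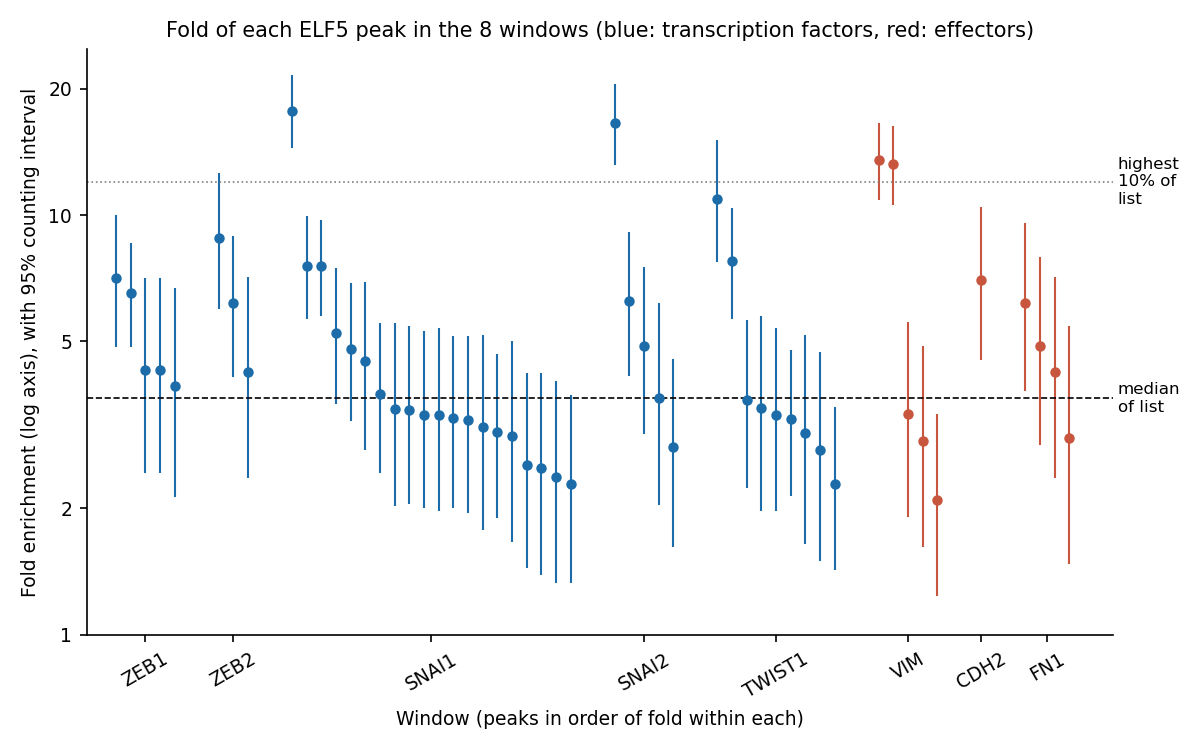
Fold of each of the 52 peaks, in order of fold within its window, on a log axis. Points are the authors' folds and bars 95% Poisson intervals of the recovered pileup with the background held fixed. The 4 strong peaks have folds of 13.2 to 17.7. The dashed line marks the median of the list, 3.66, and the dotted line the limit of strong peaks, 11.99.

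The strongest peaks of the windows fell in the order SNAI1, SNAI2, VIM, TWIST1, ZEB2, ZEB1, CDH2 and FN1, from a fold of 17.7 down to 6.18. Of the 28 pairs, 17 had overlapping intervals. Overlap is not a test of a difference, and these pairs were not ranked here. The 11 pairs apart set SNAI1 and SNAI2 above ZEB2, ZEB1, CDH2 and FN1, and VIM above ZEB1, CDH2 and FN1. The strongest TWIST1 peak overlapped every other. These intervals cover counting error only, with no spread between replicates. They also do not allow for the number of peaks the highest was picked from, 1 at CDH2 and 20 at SNAI1. The order also depends on where the windows end. With 20 kb added at each side, the ZEB1, ZEB2 and FN1 windows held 1 strong peak each, higher than any given here for them.

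**Figure D3:**
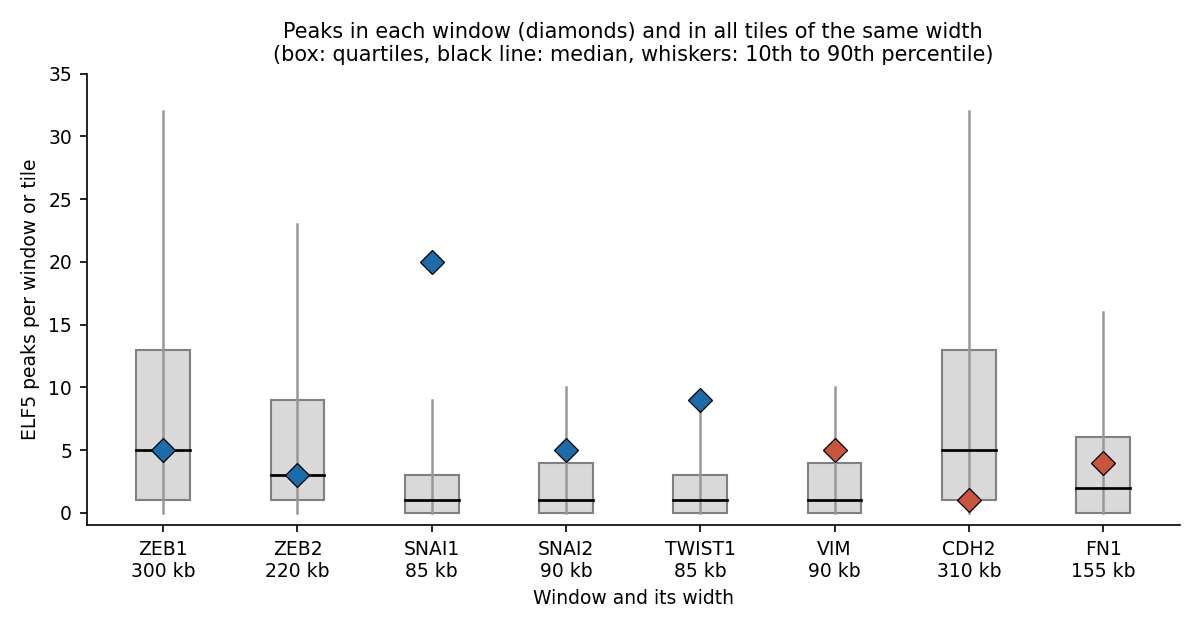
Number of ELF5 peaks in each window (diamonds, blue for transcription factor genes and red for effector genes) and in all tiles of the same width along chromosomes 1 to 22 and X. Boxes span the quartiles, black lines the median and whiskers the 10th to 90th percentile. SNAI1, with 20 peaks, lies above the whisker, which ends at 9, TWIST1 lies at it, and CDH2, with 1 peak, lies at the lower quartile.

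By role, the 5 transcription factor windows held 42 peaks in 780 kb, or 53.8 per Mb, and the 3 effector windows 10 peaks in 555 kb, or 18.0 per Mb. Without SNAI1 the factor windows held 22 peaks, or 31.7 per Mb, above the effector windows but below the 37.3 per Mb of the list. Single factor windows ran from 13.6 per Mb at ZEB2 to 235 at SNAI1. Effector windows ran from 3.23 at CDH2 to 55.6 at VIM, so the roles overlapped. Strong peaks were 2 of 42 (4.76%) in the factor windows and 2 of 10 (20%) in the effector windows, against 10.0% of the list, counts too small to compare. The median distance from a summit to the nearest other summit was 1.12 kb for the members and 1.56 kb for the list. Peaks with no other summit within 10 kb numbered 4 of 52, or 7.69%, against 18.6% of the list. Without SNAI1, which had none, they were 12.5% of the peaks. These 4 were the highest ZEB2 peak, 2 of VIM and the CDH2 peak.

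Local backgrounds, over which the fold is a ratio, differed between windows. The median background was 4 fragments at SNAI1, 2.79 at SNAI2, 3.38 at TWIST1, 2 at ZEB1, ZEB2 and CDH2, 5 at VIM and 1.81 at FN1. On chromosome 10 the median was 3.33, above the ZEB1 window and below the VIM window. The median pileup was 16 in the 8 windows and 16 in the list. The strong VIM peaks lay over a background of 5, above the list's median of 3.11. What part the background has in the ranks by fold was not tested.

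**Figure D4:**
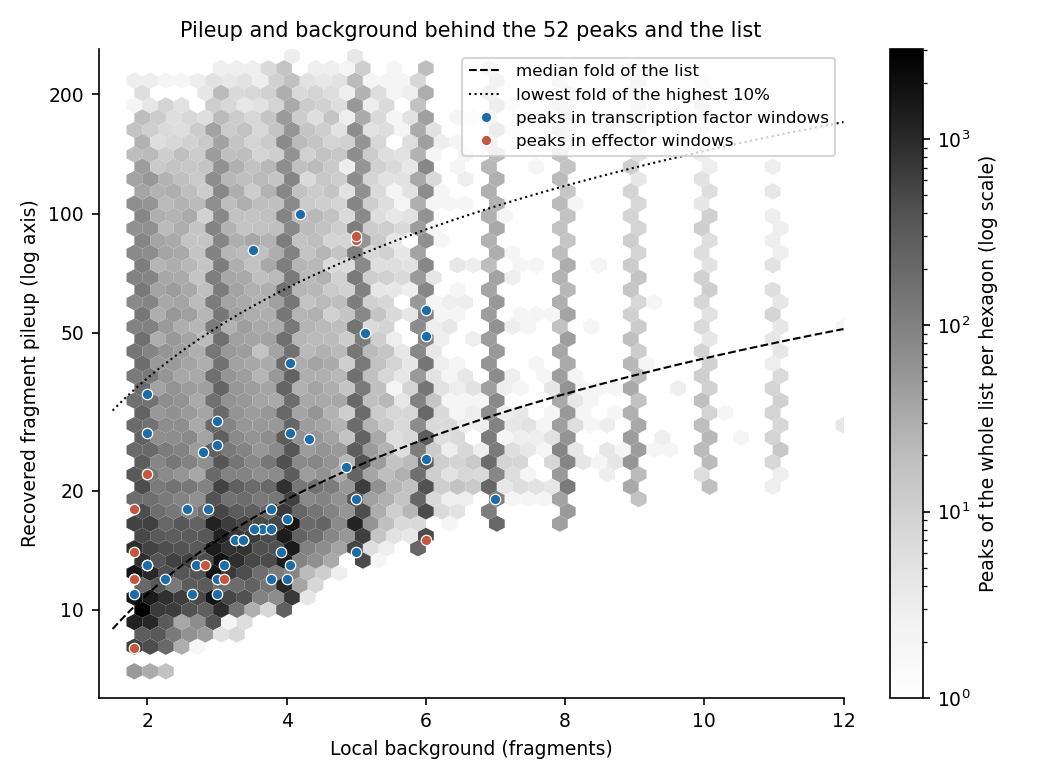
Recovered pileup (log axis) against local background in fragments. Grey hexagons count the peaks of the whole list, blue points the 42 peaks of the transcription factor windows and red points the 10 of the effector windows. The dashed line marks the list's median fold of 3.66 and the dotted line the limit of strong peaks, 11.99, with 4 members above it. Most members lie where the list is densest, at pileups under 30.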

How the data were processed

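ELF5 ChIP-seq of T47D cells (3 replicates and 1 input sample) was used as 1 peak list. The build is hg19, per the file headers. Its track name mentions IDR and 1-3, meaning either replicates 1 to 3 or only 1 and 3, and the list has no IDR column. Aligner, caller, threshold and pooling were not given in the sources used here, and no source says whether replicates were separate cultures. The authors' deposited score was not used. Their signal value was read as a fold, a ratio of ChIP to local background, and the deposited −log10 p and −log10 q were used as given.

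Pileups and backgrounds were inferred from the authors' fold and p by scaling whole pileups by 0.91, adding a pseudocount of 1 and taking the Poisson tail. This gave −log10 p within 0.001 for 115384 peaks, and 95 peaks allowed a second pileup. On 15832 peaks simulated from this same formula, with a scale of 0.773, 100% of pileups were recovered. This checks the inversion only and cannot show that the formula was the authors'. Reads per sample are unknown here. Intervals are exact Poisson 95% intervals and cover counting error only. Tiles were whole windows along chromosomes 1 to 22 and X, gaps in the assembly included.

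Named were the 8 windows, in each the strongest peak, all strong peaks, and all peaks where a window held 5 or fewer. Other peaks named were chosen after their values were seen, as were the 500 bp and 10 kb limits. Members and lists were chosen with earlier results of these data known. Gene order and promoters came from RefSeq tables of GRCh38.p14, with no conversion of coordinates, so positions within genes, peak sequences and other transition genes were not analysed here. Computations used scipy 1.17.1 and numpy 2.4.6 in Python 3.11.15, with pandas 2.3.3 for tables, and figures were drawn with matplotlib 3.10.9.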

Additional observations from a re-analysis of the deposited data

How the results depend on the processing

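The 52 peaks became 27 in the upper 50% of the list by fold, a change by construction, and 32 without the SNAI1 window. Under the other 5 alternatives (q under 0.05, any overlap, summits within 400 bp counted once, windows reduced or widened by 20 kb) the sum ran from 40 to 75. The 4 strong peaks became 0 with the highest 5% by fold, 11 with the highest 20% and 7 with windows widened by 20 kb. They were 3 with reduced windows or without SNAI1, and 4 by p. For single windows, 42 of 48 peak counts and 28 of 40 strong counts stayed within 1.5 times. The strong counts include those of 0 that stayed 0, so their figure is no measure of how stable the strong peaks were. The median fold was 4.24 with q under 0.05 and 4.26 without SNAI1, against 3.70. The share of tiles with at least as many peaks changed little with the same peaks in tiles shifted by part of their width. On the same chromosome only, it was 68.3% for ZEB1, 48.1% for ZEB2, 8.37% for SNAI1, 20.2% for SNAI2, 10.3% for TWIST1, 27.7% for VIM, 79.7% for CDH2 and 29.8% for FN1. Among tiles with at least 1 peak it was 61.3% for ZEB1, 71.9% for ZEB2, 5.17% for SNAI1, 34.2% for SNAI2, 18.1% for TWIST1, 34.2% for VIM, 100% for CDH2 and 53.7% for FN1. The 100% for CDH2 holds by construction, because its window held 1 peak. The last setting and leaving out SNAI1 were chosen after seeing the data. Replicates were not left out in turn. No paired analysis was possible because no value per replicate was used. A pileup near 16 limits the ranking of typical peaks.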
